A study of Mus musculus with 6 samples.

Results

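The genes described here encode the subunits of oxidative phosphorylation, in the nucleus and in mitochondrial DNA. They were taken from the deposited expression table by symbol: genes named Nduf with a letter a, b, c, s or v and a digit, Sdha to Sdhd, the Uqcr genes, Cyc1, Cox4 to Cox8, the Atp5 genes, and the mitochondrial genes of the Nd, Co, Cytb and Atp families, without the 7 symbols that contain -ps. This gave 102 of 52369 genes, 89 nuclear and 13 mitochondrial. Of the nuclear genes 38 belong to complex I, 4 to complex II, 9 to complex III, 21 to complex IV and 17 to complex V, and of the mitochondrial genes 7 belong to complex I, 1 to complex III, 3 to complex IV and 2 to complex V. Ndufa4 and Ndufa4l2 were put with complex IV. Of the 102 genes, 4 (Ndufb4c, Ndufs6b, Ndufa11b and Cox6c2) are annotated as processed pseudogenes, and the rule also takes Atp5s, a coupling factor, and Cox7a2l, which helps to join complexes III and IV into supercomplexes. It does not take Ndufab1, the acyl carrier subunit of complex I.

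RNA was sequenced from tibialis anterior muscle of C57BL/6 mice labelled 6 weeks of age, in 3 control libraries and 3 libraries labelled L7, that overexpress Linc-smad7, a long non-coding RNA. All 6 muscles shared the same injury, 50 µl of 10 µM cardiotoxin, a venom toxin that destroys muscle fibres, given at 5 weeks. The labels describe 3 injections of 6.25 µg pcDNA3.1 plasmid with an in vivo transfection reagent in 50 µl of 10% glucose, the last on day 4, and harvest on day 7, and they do not say what plasmid the control muscles received. The labels do not say whether each library came from an animal of its own. Reads of Y-linked genes (given below) were many in some libraries of each group and 2 or none in others, so each group holds more than 1 animal, and the p-values measure the spread between these libraries, part of which may be technical. Plasmid is taken up by part of the cells of an injected muscle, and the libraries hold RNA of the whole regenerating tissue. In such bulk samples fewer cells of a type and less RNA per cell cannot be told apart.

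Oxidative phosphorylation passes electrons from NADH and succinate through complexes I to IV to oxygen, and complex V uses the resulting proton gradient to make ATP. Most subunits are encoded in the nucleus and imported, while a small catalytic core is encoded in mitochondrial DNA and transcribed as long polycistronic RNAs that are cut at the tRNAs between the genes. Muscle fibres are rich in these complexes, and complex IV has subunits with separate heart and skeletal muscle forms and forms made in most other tissues.

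The reads in genes numbered 19420012 to 24663153 per library. L7 replicate 3 was unlike the remaining 5 libraries, with correlations over genes of 0.920 to 0.951 with them, against 0.979 to 0.989 among them. On FPKM as deposited the median log2 difference of all genes tested (L7 minus control) was -0.153, and with median of ratios scaling it was -0.003, so list medians are also given as their distance from it. Y-linked genes had more than 100 reads in control replicates 1 and 3 and L7 replicate 1, and 2 reads or none in the others. Of the labelled tissue, the 13 adult fast fibre markers, such as the actin Acta1 and the creatine kinase Ckm, had FPKM that summed to between 26850 and 114900 per library, while those of 6 cardiac markers summed to between 4.72 and 13.5. The level of Linc-smad7 was not analysed here, as the labels give no gene identifier for it.

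No subunit gene passed the test between the groups, and the median difference of the nuclear genes came mainly from 1 library. The test was limma on log2(FPKM + 1), adjusted over the 14788 genes with a mean of at least 1 FPKM (fragments scaled by gene length and by library depth), with a threshold of 0.05. It covered 99 of the 102 genes. Of the 3 left out, Cox7b2 and Cox8c were listed at 0 in all libraries and the pseudogene Ndufa11b was at 0.243 FPKM in control replicate 2 and at 0 elsewhere. By limma 0 of 99 members passed, with a smallest adjusted p of 0.58, and over all genes 0.0% passed, with a smallest adjusted p of 0.468. At an unadjusted p under 0.05 limma also had 0 members in either direction, where 1.65% of all genes were higher and 4.25% lower in L7, and limma voom on recovered reads likewise had 0. The smallest unadjusted p of a member was 0.0835, for Ndufb10.

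The subunit genes nevertheless lay mostly on the positive side. Of the 99 members tested 92 had a positive log2 difference and 7 a negative one, with a median of 0.298 (0.451 above that of all genes), while 29.2% of all genes tested were positive. With median of ratios scaling 97 members and 7329 of the 14788 genes were positive, and the median of the members was 0.471 (0.474 above that of all genes). All 3 L7 libraries lay above all 3 control libraries in 15 members (15.2%), against a background of 5.49% of all genes, and below them in 1 member (1.01%), against 13.7%. With median of ratios scaling 28 members lay above and 0 below, but the share over all genes was not counted under that scaling. These 15 were mt-Nd2, the complex I genes Ndufa8, Ndufa11, Ndufa13, Ndufb8, Ndufb10, Ndufs1, Ndufs3 and Ndufs7, the complex II genes Sdha, Sdhc and Sdhd, Uqcrc1, Cox4i1 and Atp5d, and the 1 below was Cox6a1. Counted with L7 replicates 1 and 2 alone against the controls, 16 members lay above (16.2%, background 9.9%) and 11 below (11.1%, background 15.0%), and the median log2 difference of the 99 was 0.047 (0.079 above that of all genes), with 61 positive. Subunit reads made up 3.62%, 3.55% and 3.10% of the control libraries and 3.59%, 3.82% and 6.44% of the L7 libraries in order of replicate. L7 replicate 3 was the highest library for 88 of the 99 members and for 17.6% of all genes tested, and the lowest for 3 members and for 63.2% of all genes.

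**Figure D1:**
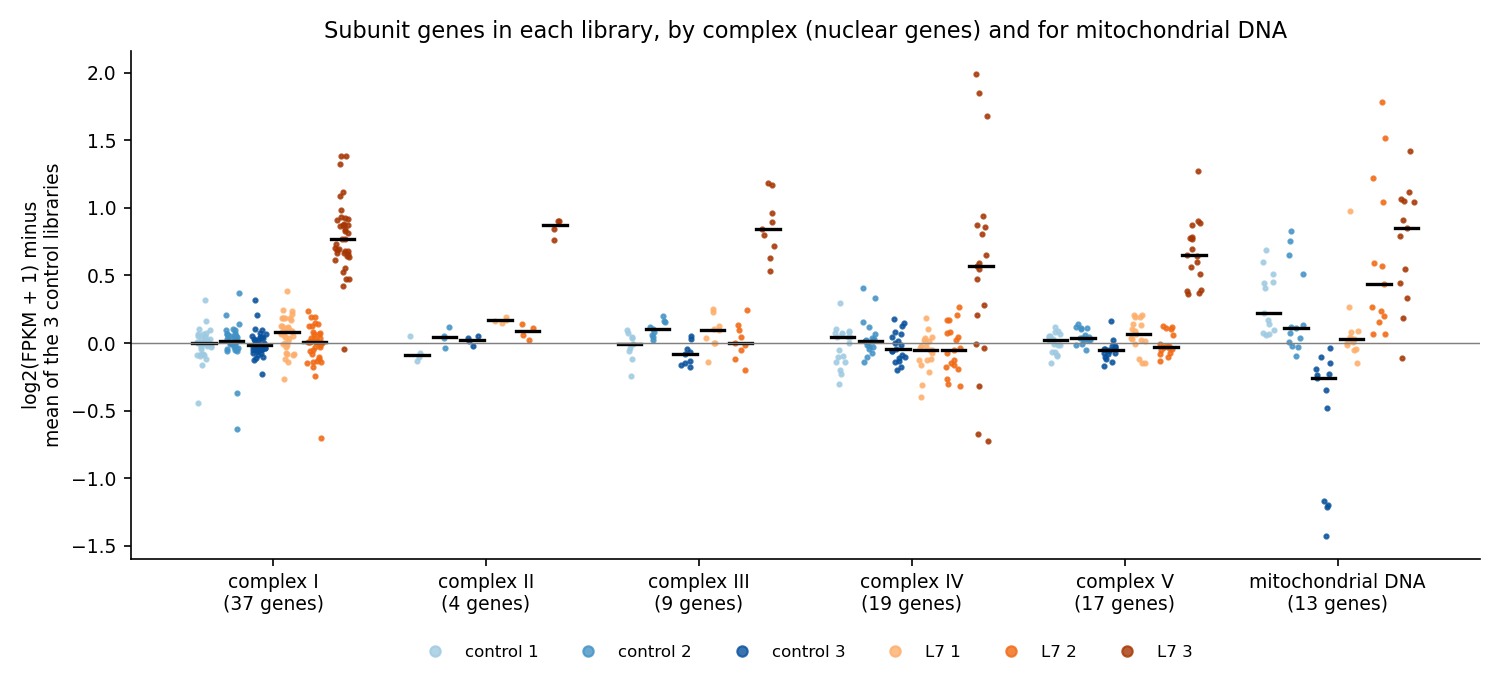
Each point is a subunit gene in 1 library, as log2(FPKM + 1) minus the mean of the 3 control libraries, for the nuclear genes of complexes I to V and for the 13 genes of mitochondrial DNA, and black bars are medians over genes. The nuclear medians of L7 replicate 3 lie between 0.567 (complex IV) and 0.869 (complex II), those of L7 replicates 1 and 2 between -0.053 and 0.168.

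Among nuclear members the controls agreed closely, with a median coefficient of variation of 5.8%, against 11.6% over all genes tested and 15.4% over the mitochondrial members. All genes tested include those from a mean of 1 FPKM, and nuclear members were not compared with genes of like level. Their mean level over the 6 libraries ranged from 2.38 to 1886 FPKM with a median of 173.5, and 64 of 86 were over 100 FPKM. In L7 replicate 3 a nuclear member was at a median of 1.65 times its mean in L7 replicates 1 and 2, with a range from 0.682 to 3.66, while the median over all genes tested was 0.74. Complex by complex this median ratio was 1.70, 1.66, 1.85, 1.63 and 1.59 for complexes I to V, and the range within complex IV was the widest. The median log2 difference between the groups was 0.256 over the nuclear members (0.409 above that of all genes, and 0.433 above it with median of ratios scaling), and 0.030 without L7 replicate 3 (0.061 above that of all genes).

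Complex I, the NADH dehydrogenase, had 36 of 37 nuclear members tested with a positive difference and a median of 0.297, and its median level was 126.5 FPKM. Ndufv1, the subunit that binds NADH and FMN, was at 175, 206 and 180.0 FPKM in control and at 212, 195 and 369 FPKM in L7 libraries. L7 replicate 3 was the highest library and L7 replicate 2 lay within the controls. Ndufs1, the iron-sulfur subunit next in the electron path, was at 101, 103 and 89.9 FPKM in control and at 112, 112 and 164 FPKM in L7 libraries, and its groups did not overlap. Ndufb10, an accessory subunit of the membrane arm with the largest log2 difference of the complex, was at 161, 177 and 173 FPKM in control and at 201, 201 and 428 FPKM in L7 libraries. All 3 L7 values lay above the controls, and the log2 difference was 0.60 ± 0.30 (SE), with a limma adjusted p of 0.58. The 1 negative difference in complex I was that of Ndufb2, an accessory subunit at only 3.37, 3.96 and 2.66 FPKM in control and 3.28, 3.13 and 3.17 FPKM in L7 libraries, with a log2 difference of -0.03 ± 0.17 (SE), which was positive with median of ratios scaling (0.10).

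Complex II, succinate dehydrogenase, has no mitochondrial gene, and its 4 nuclear members had a median log2 difference of 0.369, the highest of the nuclear complexes. Sdha, the flavoprotein that oxidises succinate, was at 424, 504 and 468 FPKM in control and at 521, 511 and 832 FPKM in L7 libraries. Sdhb, the iron-sulfur subunit, was at 144, 159 and 159.7 FPKM in control and at 171, 157 and 288 FPKM in L7 libraries. Sdhc, a membrane anchor, was at 84.0, 90.9 and 91.0 FPKM in control and at 99.8, 95.9 and 167 FPKM in L7 libraries. Sdha, Sdhc and Sdhd, the other anchor, had all L7 libraries above all controls, and L7 replicate 2 lay among the controls for Sdhb. The difference of L7 replicates 1 and 2 from the controls was small, with a median of 0.135 over the 4 genes without L7 replicate 3. Sdhc had the largest log2 difference of the complex, 0.40 ± 0.23 (SE), with a limma adjusted p of 0.58.

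Complex III, which passes electrons from ubiquinol to cytochrome c, had 9 of 9 nuclear members with a positive difference and a median of 0.296. Uqcrc1, a core protein of the matrix side, was at 226, 308 and 278 FPKM in control and at 316, 319 and 613 FPKM in L7 libraries, all 3 above the controls. Its log2 difference was the largest of the complex, 0.55 ± 0.29 (SE), with a limma adjusted p of 0.58. Cyc1, cytochrome c1, was at 159.5, 194 and 168 FPKM in control and at 206, 190.1 and 389.8 FPKM in L7 libraries, and Uqcrfs1, the Rieske iron-sulfur protein, was at 122, 134 and 119 FPKM in control and at 133, 133 and 243 FPKM in L7 libraries. L7 replicate 2 lay among the controls for Cyc1, and both L7 replicates 1 and 2 did for Uqcrfs1. Uqcrq, a small subunit and the most abundant of the nuclear complex III genes, was at 341, 361 and 362 FPKM in control and at 355, 352 and 661 FPKM in L7 libraries, so that only L7 replicate 3 lay outside the control range. Uqcrb, another small subunit, had the smallest difference, 0.13 ± 0.26 (SE), and it was -0.17 without L7 replicate 3, with L7 replicates 1 and 2 at 149 and 143 FPKM against 146 to 178 FPKM in control.

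Complex V, the ATP synthase, had 17 of 17 nuclear members with a positive difference and a median of 0.214. Atp5b, the catalytic beta subunit and the most abundant nuclear gene of the set, was at 1494, 1755 and 1546 FPKM in control and at 1826, 1744 and 2950 FPKM in L7 libraries. Atp5a1, the alpha subunit that alternates with it in the catalytic ring, was at 684, 777 and 694 FPKM in control and at 826, 776 and 1344 FPKM in L7 libraries. In both genes L7 replicate 2 lay below control replicate 2, and the log2 differences were 0.40 ± 0.28 (SE) and 0.41 ± 0.25 (SE), each with a limma adjusted p of 0.58. The smallest difference was that of Atp5mpl, a small membrane subunit, at 286, 272 and 234 FPKM in control and 261, 245 and 344 FPKM in L7 libraries. Its log2 difference was 0.09 ± 0.19 (SE), and -0.06 without L7 replicate 3.

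The proton-carrying ring of complex V is made of subunit c, which the 3 genes Atp5g1, Atp5g2 and Atp5g3 encode with different import sequences and the same mature protein. Atp5g1 was at 52.3, 59.3 and 53.2 FPKM in control and at 63.6, 59.0 and 134 FPKM in L7 libraries. Its share of the summed FPKM of the 3 genes was 6.12% to 7.23% in 5 libraries and 10.93% in L7 replicate 3, and its log2 difference was the largest of complex V, 0.53 ± 0.30 (SE), with a limma adjusted p of 0.58. Atp5g3 made up 56.0% to 59.96% and Atp5g2 made up 31.1% to 37.1%, and Atp5g2 was at its lowest share in L7 replicate 3. Atp5g1 has a processed pseudogene, Gm10039, on chromosome 11 that is 99.8% identical over 411 bases and was itself at 70.9 to 94.8 FPKM in 5 libraries and at 175 FPKM in L7 replicate 3, so the levels of this pair are uncertain.

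Complex IV, cytochrome c oxidase, had nuclear members that differed widely among themselves. Of 19 tested, 13 had a positive and 6 a negative difference, with a median of 0.113, and without L7 replicate 3 the median was -0.050. Cox6b1, which faces the intermembrane space and was the most abundant of them, was at 499.7, 490.5 and 466 FPKM in control and at 497, 472 and 674 FPKM in L7 libraries. Cox4i1, the form of subunit IV made in most tissues, was at 400.0, 438 and 449 FPKM in control and at 461, 453 and 750.4 FPKM in L7 libraries, with no overlap. Its counterpart Cox4i2, known from lung and from hypoxia, was near the low end of the set, at 4.20, 5.01 and 4.00 FPKM in control and 3.64, 3.37 and 5.56 FPKM in L7 libraries. Cox6b2, the testis form, was at 3.63 to 5.48 FPKM in control and 3.58 to 5.60 FPKM in L7 libraries, and the 2 other tissue forms, Cox7b2 and Cox8c, were listed at 0. The log2 differences of Cox4i2 (-0.08) and Cox6b2 (-0.14) were positive with median of ratios scaling (0.07 and 0.0017).

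The forms of subunits 6a, 7a and 8 known from heart and skeletal muscle separated from their counterparts, and did so in L7 replicate 3. Cox6a2 (ENSMUSG00000030785, mm10 chromosome 7, 128205435 to 128206387, minus strand) was at 185, 213 and 215 FPKM in control and at 207, 229 and 737 FPKM in L7 libraries. Cox7a1 (ENSMUSG00000074218, chromosome 7, 30184144 to 30186078, plus strand) was at 94.9, 138 and 98.7 FPKM in control and at 107, 131 and 436 FPKM in L7 libraries. Cox8b (ENSMUSG00000025488, chromosome 7, 140898945 to 140900446, minus strand) was at 153, 170.4 and 184 FPKM in control and at 164, 162 and 542.5 FPKM in L7 libraries. These 3 genes had the highest ratios of all nuclear members in L7 replicate 3 to L7 replicates 1 and 2, 3.38, 3.66 and 3.32, while L7 replicates 1 and 2 lay within the controls for Cox7a1 and Cox8b, and Cox6a2 was above the controls in L7 replicate 2 and within them in L7 replicate 1. The log2 differences were 0.68 ± 0.46 (SE), 0.74 ± 0.50 (SE) and 0.53 ± 0.45 (SE), with limma adjusted p-values of 0.58, 0.58 and 0.592, and without L7 replicate 3 they were 0.10, 0.12 and -0.04.

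The counterparts made in most tissues were lower in L7 replicate 3 in 2 of the 3 subunits, as most genes were. Cox6a1 (ENSMUSG00000041697, chromosome 5, 115345642 to 115348981, minus strand) was at 345, 312 and 327 FPKM in control and at 311.7, 290.5 and 206 FPKM in L7 libraries. It was the only member whose L7 libraries all lay below the controls, narrowly for L7 replicate 1 against control replicate 2 (311.7 against 311.8). Cox8a (ENSMUSG00000035885, chromosome 19, 7215153 to 7217616, minus strand) was at 274, 234 and 266 FPKM in control and at 237, 206.5 and 156 FPKM in L7 libraries. Cox7a2 (ENSMUSG00000032330, chromosome 9, 79755361 to 79759878, minus strand) was at 218, 205 and 202 FPKM in control and at 201, 182 and 241 FPKM in L7 libraries. Cox6a1 and Cox8a were lowest in L7 replicate 3, as was Cox6b2, and these were the 3 members of the set for which that library was the lowest. It was also the lowest for 63.2% of all genes tested. Its ratios to the mean of L7 replicates 1 and 2 were 0.68 for Cox6a1 and 0.70 for Cox8a, near the median of 0.74 over all genes tested. The log2 difference of Cox6a1 was -0.31 ± 0.20 (SE) and that of Cox8a -0.39 ± 0.20 (SE), the most negative of the set, each with a limma adjusted p of 0.58, and both kept their sign with median of ratios scaling (-0.13 and -0.21). That of Cox7a2 was -0.01 ± 0.16 (SE) and 0.16 with that scaling.

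As a share of the summed FPKM of both forms, which a single scaling factor per library cannot move, Cox6a2 was 34.9%, 40.6% and 39.7% in the control group and 39.9%, 44.1% and 78.2% in the L7 group. Cox7a1 was 30.3%, 40.2% and 32.8% in the control group and 34.7%, 41.9% and 64.4% in the L7 group, and Cox8b was 35.8%, 42.2% and 40.9% in the control group and 40.9%, 44.0% and 77.7% in the L7 group. The muscle form was the minority in all 5 other libraries and the majority in L7 replicate 3 for each of the 3 subunits. The differences of the group means were 15.7, 12.6 and 14.6 percentage points, and the exact two-sided permutation p was 0.2 for each (0.2 after Benjamini-Hochberg adjustment over the 3 subunits), where 3 libraries against 3 cannot give less than 0.1. Without L7 replicate 3 the differences were 3.64, 3.88 and 2.88 points.

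**Figure D2:**
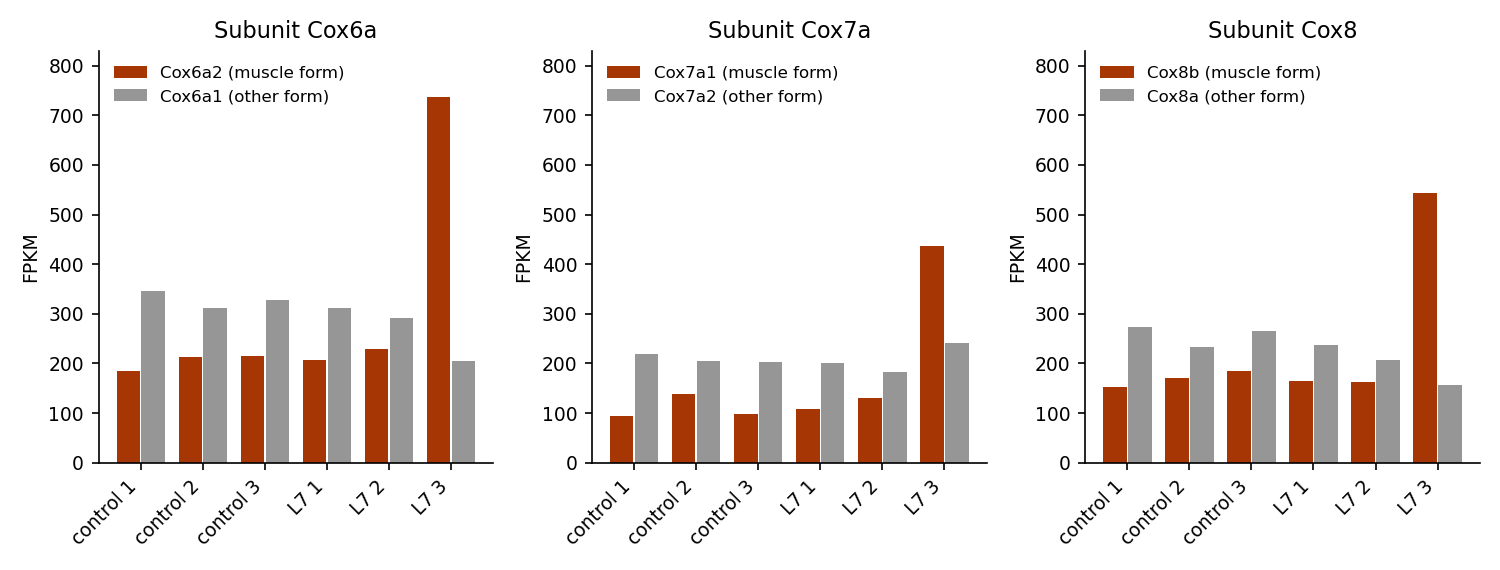
Bars give the FPKM of the muscle form and of the other form of complex IV subunits Cox6a, Cox7a and Cox8 in each of the 6 libraries. In L7 replicate 3 the muscle forms stand at 737, 436 and 542.5 FPKM against 206, 241 and 156 FPKM of the other forms, and in the other 5 libraries the other form is the higher of each pair.

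Promoters of those isoforms that held a searched motif (Cox6a1, Cox8a and Cox8b) are shown so that their sequences can be set beside the values above. They come from RefSeq, GRCm38.p6, the assembly of the mm10 coordinates, run 5′ to 3′ on the strand of the gene, and cover 250 bases before and 50 bases after the start of the gene. Capitals mark matches on either strand to the cores searched: GCATGCGC for the nuclear respiratory factor NRF1, CCGGAAGT for the ETS factor GABPA, and CAGCTG, an E-box of the myogenic factors. The matches of Cox6a1 are 2 overlapping ones, 1 on each strand, because the core overlaps its own reverse complement.
Cox6a1 (chr5:115348909-115349208, minus strand): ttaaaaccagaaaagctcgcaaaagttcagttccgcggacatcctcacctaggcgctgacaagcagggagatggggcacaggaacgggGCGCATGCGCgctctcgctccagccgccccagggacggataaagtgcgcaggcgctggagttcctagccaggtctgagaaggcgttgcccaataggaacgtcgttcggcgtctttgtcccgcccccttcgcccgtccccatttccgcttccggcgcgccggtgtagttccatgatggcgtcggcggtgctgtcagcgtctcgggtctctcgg
Cox8a (chr19:7217567-7217866, minus strand): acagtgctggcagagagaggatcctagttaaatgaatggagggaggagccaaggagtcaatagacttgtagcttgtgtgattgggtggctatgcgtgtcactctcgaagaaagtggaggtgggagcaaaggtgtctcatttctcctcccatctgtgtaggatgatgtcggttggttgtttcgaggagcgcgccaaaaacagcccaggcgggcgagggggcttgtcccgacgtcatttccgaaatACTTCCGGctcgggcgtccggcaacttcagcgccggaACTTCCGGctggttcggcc
Cox8b (chr7:140900397-140900696, minus strand): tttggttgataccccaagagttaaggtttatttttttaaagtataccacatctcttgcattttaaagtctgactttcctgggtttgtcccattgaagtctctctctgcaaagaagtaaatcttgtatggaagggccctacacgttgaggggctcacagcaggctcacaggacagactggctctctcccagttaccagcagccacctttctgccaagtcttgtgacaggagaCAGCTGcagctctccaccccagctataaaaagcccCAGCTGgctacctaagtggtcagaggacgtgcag
The NRF1 core occurs in Cox6a1, the ETS core 2 times in Cox8a and the E-box 2 times in Cox8b. Promoters of this length were listed for 66 of the 89 nuclear members. The NRF1 core was in 10 of them (15.2%) and in 2.8% of 27025 mouse promoters, the ETS core in 5 (7.58%) and 4.0%, and the core AAGATGGC of YY1 in 8 (12.1%) and 2.88%. The extended half-site TCAAGGTCA of the estrogen-related receptors was in Atp5g3 and Sdhd (3.03%) and in 0.407% of all promoters. The E-box was in 6 members (9.09%) and 16.1% of all promoters, and the MEF2 consensus was in 0 members and 3.26% of all promoters. These are letter matches, counted over both strands, and the promoters of Cox7a1 and Cox7a2 held none of the 6 motifs in this window. No promoter was listed for Cox6a2, so of these muscle forms only Cox7a1 and Cox8b were searched.

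Other paralogs of complex IV had their own patterns. Ndufa4, a subunit of the enzyme in spite of its name, was at 265, 262.5 and 268 FPKM in control and at 260.5, 251.5 and 486 FPKM in L7 libraries. Ndufa4l2, its relative known from hypoxia, was at 42.4, 32.0 and 29.9 FPKM in control and at 34.8, 28.4 and 34.1 FPKM in L7 libraries, with L7 replicate 3 inside the range of the others. Cox7a2l was at 113, 109 and 101 FPKM in control and at 122.5, 109 and 105 FPKM in L7 libraries. L7 replicate 3 was not the highest library for Ndufa4l2, Cox7a2l, Cox6b2, Cox6a1, Cox8a or the complex I gene Ndufb2, and these were the 6 exceptions among the 86 nuclear members tested. The log2 difference of Ndufa4l2 was -0.09 ± 0.18 (SE), and 0.08 with median of ratios scaling.

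The 13 mitochondrial genes all had positive differences, with a median of 0.479 (0.631 above that of all genes, and 0.657 above it with median of ratios scaling), and 0.197 without L7 replicate 3. They were also all lowest in control replicate 3, and without that library the median was 0.242. Mitochondrial genes took 2.35%, 2.21% and 1.85% of the reads in the control group and 2.23%, 2.51% and 4.19% in the L7 group, and 48.5% to 56.9% of the summed FPKM of the set. Along the mitochondrial genome the genes fell into 2 stretches that behaved differently. The 7 genes at its ends (mt-Nd1, mt-Nd2, mt-Co1, mt-Nd4, mt-Nd5, mt-Nd6 and mt-Cytb) were all highest in L7 replicate 3, and of the 6 between mt-Co2 and mt-Nd4l only mt-Atp8 was. The median log2 difference of the 7 was 0.402, and 0.135 without L7 replicate 3. That of the 6 was 0.576, and 0.669 without L7 replicate 3.

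mt-Co1, the catalytic subunit of complex IV and the most abundant member of the set, was at 5677, 5568 and 5065 FPKM in control and at 5439, 6034 and 11270 FPKM in L7 libraries. mt-Cytb, cytochrome b of complex III, was at 3686, 3175 and 2704 FPKM in control and at 3049, 3313 and 5942 FPKM in L7 libraries. mt-Nd2, a membrane subunit of complex I, was at 1294, 1226 and 1212 FPKM in control and at 1315, 1429 and 3334 FPKM in L7 libraries, and was the mitochondrial gene whose groups did not overlap. For these 3 genes the controls and L7 replicates 1 and 2 were close together and L7 replicate 3 was far above them. Of the other complex I genes, mt-Nd1 was at 2307 to 2876 FPKM in control and at 2715, 2677 and 5257 FPKM in L7 libraries, mt-Nd4 at 955 to 1238 FPKM and at 1093, 1525 and 2445 FPKM, and mt-Nd5 at 759 to 1003 FPKM and at 929.5, 1073 and 1638 FPKM. mt-Nd6, the 1 gene on the other strand, was at 574 to 708 FPKM in control and at 673, 786 and 1367 FPKM in L7 libraries. Strand use in counting is not stated in these sources, so reads of mt-Nd6 and of RNA from the opposite strand cannot be told apart. The log2 differences of these 7 genes ran from 0.31 ± 0.34 (SE) for mt-Cytb to 0.57 ± 0.37 (SE) for mt-Nd2, with limma adjusted p-values of 0.657 and 0.58.

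The genes of the middle stretch did not follow this order. mt-Co2, the subunit that takes electrons from cytochrome c, was at 1875, 1489 and 1011 FPKM in control and at 2784, 2097 and 1309 FPKM in L7 libraries, with L7 replicates 1 and 2 above all controls and L7 replicate 3 below 2 of them. mt-Co3 was at 842, 928 and 262 FPKM in control and at 603, 1373 and 863 FPKM in L7 libraries. mt-Atp6, the proton channel of complex V, was at 775, 684 and 209 FPKM in control and at 577, 990.6 and 653 FPKM in L7 libraries. In both of the latter L7 replicate 2 was the highest library and control replicate 3 lay far under the rest. mt-Nd3 was at 248, 306 and 77.7 FPKM in control and at 163, 519.8 and 228 FPKM in L7 libraries, and mt-Nd4l was at 77.3, 90.7 and 18.3 FPKM and at 51.0, 177 and 57.8 FPKM. mt-Atp8 was at 38.0, 25.8 and 21.5 FPKM in control and at 27.4, 42.1 and 48.6 FPKM in L7 libraries, which is 3.77% to 10.3% of mt-Atp6, although both lie on a common mRNA and overlap (mt-Atp8 at 7766 to 7969 and mt-Atp6 at 7927 to 8607 of the mitochondrial genome, mm10). The log2 differences of these 6 genes ran from 0.46 ± 0.28 (SE) for mt-Atp8 to 0.66 ± 0.68 (SE) for mt-Nd4l, with limma adjusted p-values of 0.58 and 0.641. Without control replicate 3 the differences of mt-Atp6, mt-Nd3 and mt-Nd4l were -0.01, -0.04 and -0.05.

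The middle stretch has a copy in the nuclear genome. On chromosome 1, annotated pseudogenes between 24611535 and 24616197 (mm10) match it: Gm28661 is 100% identical to mt-Co2 over 681 bases, Gm10925 to mt-Atp6 over 678, Gm28437 to mt-Co3 over 783 and Gm10222 to mt-Nd4l over 294, and mt-Atp8 lies between mt-Co2 and mt-Atp6 without a match of its own. At the ends of the copied segment Gm29216 matches 483 bases of mt-Co1 and Gm28439 matches 876 bases of mt-Nd4. Gm28438, the copy of mt-Nd3, differs from it in 1 of 345 bases. The first 60 bases of both are shown because a read from this gene can be placed by sequence only if it covers that base, given in capitals and written T3C (T at position 3 of mt-Nd3, counted from 1 at its 5′ end, and C in the copy). They are the GENCODE M21 transcripts, on mm10, 5′ to 3′.
mt-Nd3 (chrM:9459-9518, plus strand): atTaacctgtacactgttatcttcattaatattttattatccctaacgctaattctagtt
Gm28438 (chr1:24613060-24613119, minus strand): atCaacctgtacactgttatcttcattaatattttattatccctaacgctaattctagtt
No source used states how reads that match several places were counted, so the levels of the 6 genes are uncertain. The same doubt holds for 2 genes counted as outside the segment, mt-Nd4 over the copied bases and mt-Co1, which also matches Gm13340 on chromosome 2 at 97.6% over 1545 bases. The FPKM of the 6 genes inside the segment summed to 3855, 3523 and 1600 in the control group and to 4206, 5200 and 3160 in the L7 group, while those of the other 7 summed to 16430, 15410 and 13580 in the control group and to 15210, 16840 and 31250 in the L7 group. The inside sum was thus 23.5%, 22.9% and 11.8% of the outside sum in the control group and 27.6%, 30.9% and 10.1% in the L7 group, lowest in L7 replicate 3 and control replicate 3. The copies themselves took few reads, for example 1069 to 2450 reads in Gm28661 against 17060 to 42233 in mt-Co2. Of the 7 copies, 5 were highest in L7 replicate 3, as the genes outside the segment were, and Gm28438 and Gm10222 were not. Whether the placement of reads accounts for the pattern was not tested.

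**Figure D3:**
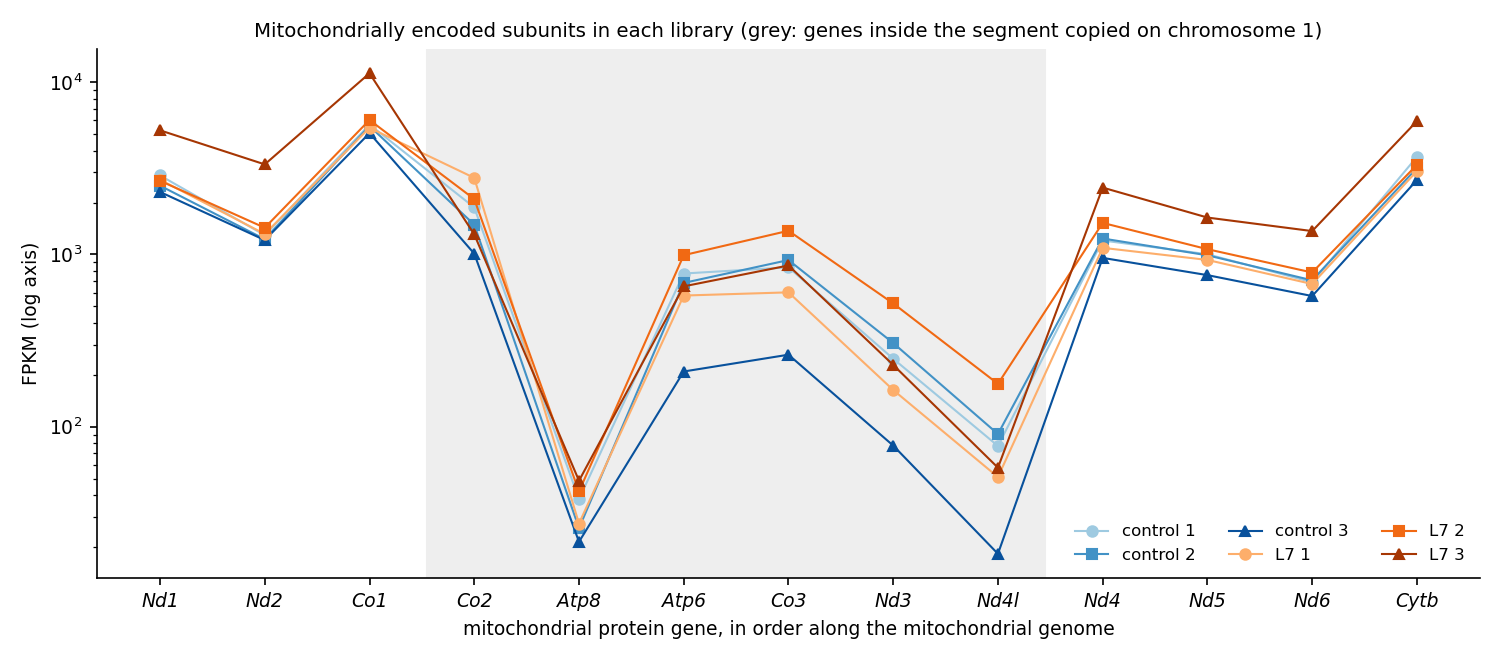
Lines join the FPKM (log axis) of the 13 mitochondrial protein genes in 1 library, in their order along the mitochondrial genome, with the 6 genes inside the segment copied on chromosome 1 in grey. L7 replicate 3 is the highest library for the 7 genes outside the grey band, and inside it L7 replicate 2 is the highest for mt-Atp6, mt-Co3, mt-Nd3 and mt-Nd4l while control replicate 3 is the lowest throughout.

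Near-identical copies also bear on nuclear members. With at least 97% identity over at least 200 bases, 16 nuclear members had a copy elsewhere in the annotation. These include the pseudogene members Ndufb4c and Ndufs6b, whose match is the protein coding member Ndufb4 or Ndufs6, which was far higher. Most of the remaining copies had a small part of the level of the gene. An exception was Gm10221, identical to Atp5l over 309 bases, at 105 to 177.5 FPKM while Atp5l itself, subunit g of the ATP synthase, was at 21.9 to 30.8 FPKM. Gm11273, annotated as protein coding and 99.2% identical to Cox5b, was at 65.4 to 119 FPKM, against 390.2 to 723 FPKM for Cox5b. The levels of these genes are uncertain for the same reason.

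Ndufa12, an accessory subunit of complex I (ENSMUSG00000020022, chromosome 10, 94198720 to 94221443, plus strand), separated the libraries by another line than group, and is named here after its values were seen. It was at 114, 58.6 and 114.6 FPKM in control and at 119.8, 56.0 and 241 FPKM in L7 libraries, low in replicate 2 of both groups. Its processed pseudogene Gm15920 on chromosome 5, 99.5% identical over 402 bases with 2 mismatches, was at 34.4, 86.3 and 39.3 FPKM in control and at 42.7, 85.8 and 73.7 FPKM in L7 libraries, with replicate 2 of both groups the highest. Of the reads of both genes together, Ndufa12 took 83.0%, 49.9% and 81.0% in the control group and 80.4%, 48.9% and 82.7% in the L7 group. Relative to the median nuclear complex I gene of the same library, Ndufa12 was at 1.00, 0.533 and 1.00 in the control group and at 1.00, 0.501 and 1.15 in the L7 group. Control replicate 2 and L7 replicate 2 were thus low in Ndufa12 and high in the copy. As CPM of the reads in genes the sum of both genes was 81.4, 69.3 and 83.4 in the control group and 87.9, 67.5 and 172 in the L7 group. Both replicate 2 libraries had 0 Y-linked reads, and L7 replicate 3, where Ndufa12 was high, had 2. The log2 difference of Ndufa12 was 0.36 ± 0.52 (SE), with a limma adjusted p of 0.726.

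**Figure D4:**
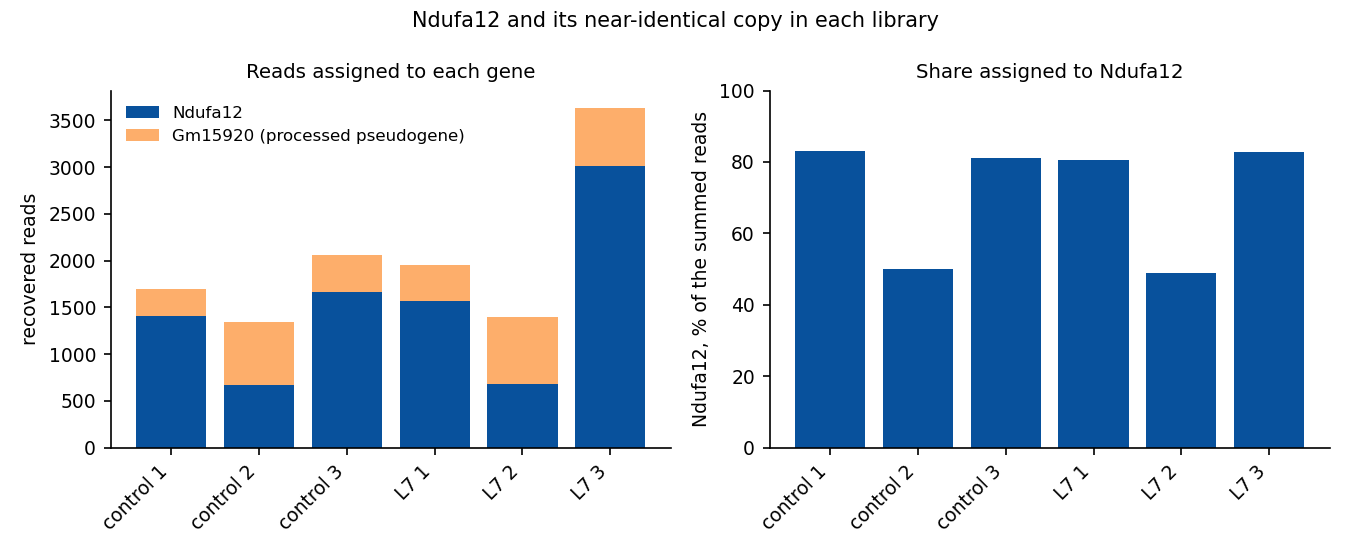
The left panel stacks the reads recovered for Ndufa12 and for its processed pseudogene Gm15920 in each library, and the right panel gives the percentage of the summed reads that Ndufa12 took. That percentage is 48.9 to 49.9 in replicate 2 of both groups and 80.4 to 83.0 in the other 4 libraries.

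Other genes of the pathway were read from 5 lists. In each list 0 members passed limma over all genes, and all smallest adjusted p-values were 0.58. The citric acid cycle, which feeds complex I and complex II, was positive in 13 of 13 members, with a median log2 difference of 0.371 (0.524 above that of all genes) and 0.109 without L7 replicate 3. Mdh2, malate dehydrogenase, was at 298, 364 and 325 FPKM in control and at 363.5, 357.5 and 677 FPKM in L7 libraries. The mobile carriers and exchangers were positive in 10 of 11 members tested, with a median of 0.274 and 0.051 without L7 replicate 3. Slc25a4, the ADP/ATP exchanger of muscle, was at 468, 573 and 493 FPKM in control and at 567, 549 and 1555 FPKM in L7 libraries, and Vdac1, the outer membrane channel, was at 295, 343 and 306 FPKM in control and at 331, 338 and 729 FPKM in L7 libraries. For Mdh2, Slc25a4 and Vdac1 only L7 replicate 3 lay above the control range.

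Genes that build or govern the complexes went both ways in L7 replicate 3. The assembly factors had 32 of 45 members positive, with a median of 0.119, and in L7 replicate 3 their median lay 0.309 above the control mean, against 0.748 for the nuclear subunits. Uqcc2, an assembly factor of complex III, was at 174, 156 and 177 FPKM in control and at 187, 193 and 285 FPKM in L7 libraries, and Cox14, of complex IV, was at 111, 118 and 118 FPKM in control and at 124, 112 and 191 FPKM in L7 libraries. Regulators of mitochondrial biogenesis had 6 of 12 members positive, with a median of 0.083, and genes of mitochondrial transcription and mRNA maintenance 11 of 23, with a median of -0.001 (0.163 with median of ratios scaling). In L7 replicate 3 these 2 lists lay at 0.002 and 0.030 relative to the control mean, where the median of all genes lay at -0.405. These medians lie between members at both ends: L7 replicate 3 was the highest library for 5 and the lowest for 6 of the 12 regulators, and the highest for 9 and the lowest for 11 of the 23 transcription and maintenance genes. Esrra, the estrogen-related receptor alpha, was at 71.99, 74.7 and 87.5 FPKM in control and at 86.6, 85.8 and 153 FPKM in L7 libraries, while Pprc1, a relative of the coactivator PGC-1alpha, was at 40.3, 37.6 and 37.8 FPKM in control and at 34.0, 36.9 and 17.2 FPKM in L7 libraries. In Pprc1 each L7 library lay below each control library. Ppargc1a, PGC-1alpha itself, was low, at 3.17 to 4.37 FPKM in control and at 3.48, 3.56 and 7.02 FPKM in L7 libraries. Of the mitochondrial transcription list, Fastk was at 95.2, 97.1 and 98.1 FPKM in control and at 103, 106.5 and 165 FPKM in L7 libraries, and Hsd17b10, a subunit of mitochondrial RNase P, was at 51.2, 46.6 and 44.1 FPKM in control and at 52.6, 48.0 and 58.1 FPKM in L7 libraries. Fastkd4 of that list was not found under that symbol. The difference between the lists was not tested.

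**Figure D5:**
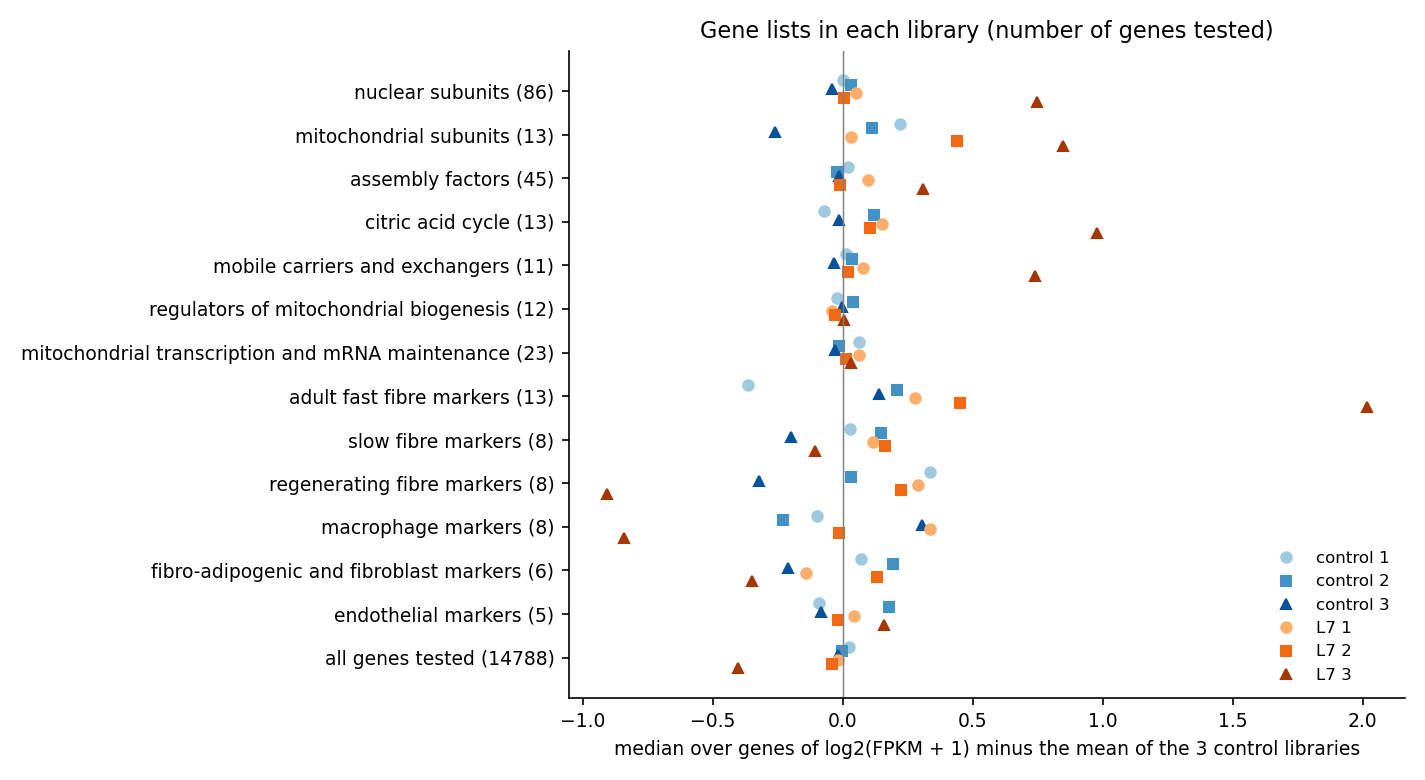
Each marker is 1 library, placed at the median over the genes of a list of log2(FPKM + 1) minus the mean of the 3 control libraries, with the number of genes tested in parentheses. In L7 replicate 3 the nuclear subunits lie at 0.748 and the adult fast fibre markers at 2.015, while the regenerating fibre and macrophage markers lie at -0.908 and -0.844. The median of all genes tested lies at -0.405 in that library.

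Of the cell type markers, those of adult fast fibres were far higher in L7 replicate 3, as most subunit genes were. Most markers of regenerating fibres and all 8 of macrophages were lowest there, as were 63.2% of all genes tested. With median of ratios scaling the medians of both lists in L7 replicate 3 lay at -0.457 and -0.394 relative to the control mean. The median of all genes tested lay at -0.023 on that scale. The 13 adult fast fibre markers summed to 26850, 37280 and 34580 FPKM in control and to 39200, 42790 and 114900 FPKM in L7 libraries, and 13 of 13 had a positive difference, with a median of 0.978 and 0.362 without L7 replicate 3. Acta1 was at 5718, 9450 and 9339 FPKM in control and at 11190, 12030 and 33720 FPKM in L7 libraries. The 8 regenerating fibre markers, such as embryonic myosin, summed to 2872 to 4216 FPKM in control and to 5681, 4983 and 4598 FPKM in L7 libraries. Their sum in L7 replicate 3 was thus above the controls, although 6 of 8 were lowest in that library and 1 was highest. Of the 8, 2 had a positive difference (5 with median of ratios scaling). The 8 slow fibre markers summed to 867 to 1258 FPKM in control and 815 to 1353 FPKM in L7 libraries, with 5 of 8 positive. The 8 macrophage markers summed to 2890 to 4097 FPKM in control and 2107 to 4265 FPKM in L7 libraries, with 1 of 8 positive (5 with median of ratios scaling) and 8 of 8 lowest in L7 replicate 3. The 6 fibroblast markers summed to 14510 to 20850 FPKM in control and 12820 to 19580 FPKM in L7 libraries, and the 5 endothelial markers to 167 to 205 FPKM and 181 to 188 FPKM. In each of these lists 0 members passed limma over all genes.

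Brown fat, another tissue rich in these complexes, was represented by 6 markers that summed to 5.80 to 7.56 FPKM in control and 6.85 to 11.3 FPKM in L7 libraries. Its defining gene Ucp1 was listed at 0 in all libraries. A large part of the sum was Ppargc1a, which is also on the list of regulators of mitochondrial biogenesis. That gene was at 3.17 to 4.37 FPKM in control and at 3.48 to 7.02 FPKM in L7 libraries. White fat markers, 7 in number, summed to 38.3 to 43.6 FPKM in control and 44.4 to 78.3 FPKM in L7 libraries, and the 5 erythroid markers to 99.2 to 300.0 FPKM and 33.6 to 289 FPKM. Of the 6 cardiac markers Myl7 was listed at 0 in all libraries. The part of fibre content in the differences of the subunit genes was not tested.

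The authors' deposited table compares the groups with its own test, and 100 of the 102 members had a p there. Of these, 1 was higher in L7 at a p under 0.05 and 0 were lower, where 0.382% of 31690 genes were higher and 0.751% lower. It was mt-Co2, with a mean normalised read count of 31340 in L7 and 20060 in control, a log2 fold change of 0.644, p = 0.0202 and, after adjustment, p = 1 in the authors' deposited table. Limma gave mt-Co2 a log2 difference of 0.48 ± 0.36 (SE) and an adjusted p of 0.582. Among the Gene Ontology terms of the authors' deposited table, complex IV had an over-representation p of 0.00951 (0.258 corrected) from 2 genes, mt-Co2 and AA467197, and the terms for the respiratory chain and for oxidative phosphorylation had p-values of 0.1995 and 0.575. AA467197, which is not a member of the set, was at 21.4, 12.2 and 16.4 FPKM in control and at 10.3, 8.44 and 2.19 FPKM in L7 libraries, opposite in direction to mt-Co2. The term therefore rested on 1 gene that was higher and 1 that was lower, and mt-Co2 is a gene of the copied segment.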

How the data were processed

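Poly-T selected RNA of 6 muscle libraries, 3 control and 3 L7, was sequenced. Per the file headers, the deposited values used are FPKM per gene and library, with a second deposited table of group means of the normalised count signal, scaled by size factors, log2 fold change, p-value and adjusted p-value from the authors' own test, and a deposited table of Gene Ontology terms with p-values. The submitters' processing notes name mm10 and, with no roles, DESeq 1.12.0, HISAT2 2.0.4, TopHat2 2.0.12 and Bowtie2 2.2.3. Which counter, annotation and strand setting were used, and how multi-mapped reads were treated, is not stated there.

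The deposited tables name genes by Ensembl identifier, and symbols for 51633 of 52369 genes were taken from GENCODE M21 by that identifier. Groups were compared with limma 3.58.1 in R 4.3.3 (mean-variance trend) on log2(FPKM + 1), for 14788 genes with a mean of at least 1 FPKM, with Benjamini-Hochberg adjustment over all of them. Fold differences on this scale understate changes of low genes. Reads were recovered from the FPKM values together with the deposited group means of normalised counts. Of 152096 values above 0, 100% were whole numbers to within 0.05. Reads in genes, 19420012 to 24663153 per library, limit precision most for genes of low FPKM. Copies were found with blastn 2.17.0 (at least 97% identity over 200 bases). The limma script was first tested on simulated data. Other software was Python 3.11.15, pandas 2.3.3, scipy 1.17.1 and matplotlib 3.10.9.

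The members and lists were chosen with earlier results of these data known. Named genes were those that passed limma, all mitochondrial members, per complex the nuclear member with the largest and the smallest log2 difference and the highest mean FPKM, core subunits by role, tissue isoforms, and in each pathway list the 2 of highest mean FPKM among members tested or those that passed. Genes of the non-overlap counts, genes with near-identical copies and the copies themselves, Sdhc and Sdhd, Acta1, Ckm, Ppargc1a and AA467197 were named after their values were seen. Some genes that the rule names are not reported here. Alternatives were another pseudocount, no filter, median of ratios and quantile scaling, limma voom on recovered reads, array weights, a replicate block, a sex covariate read from Y-linked genes, and leaving out each library.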

Additional observations from a re-analysis of the deposited data

How the results depend on the processing

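No member passed in any of the 15 other fits, whose smallest member adjusted p by limma was 0.387, without L7 replicate 1. Many members shared that value, among them Uqcrfs1, Ndufb10 and Uqcrc1, and the largest limma adjusted p of each of these was 0.873. Over all genes limma called 3 with array weights, 1 without L7 replicate 3 under median of ratios scaling, and 0 to 1 when 1 library was left out (1 without L7 replicate 1). Members with all L7 libraries above control, 15 as reported, numbered 28 with median of ratios, 23 with quantile normalization, 27 with voom, 27 without L7 replicate 3 under median of ratios, and 16 to 38 when 1 library was left out (38 without L7 replicate 2, 29 without control replicate 2 and 24 without L7 replicate 1). Members below, 1 as reported, numbered 0 with median of ratios, 0 with voom, 8 without L7 replicate 3 under median of ratios, and 1 to 11 when 1 library was left out (11 without L7 replicate 3). Fewer libraries make non-overlap easier. The share over all genes was counted only for the reported setting and for leaving out L7 replicate 3. The pseudocount, array weights, block and sex covariate do not enter these counts.

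Leaving out 1 library moved the mitochondrial median between 0.197 (without L7 replicate 3) and 0.692, and the nuclear median between 0.030 (without L7 replicate 3) and 0.417. The complex IV median was -0.023 with array weights, 0.298 with voom, -0.025 without L7 replicate 3 under median of ratios, and -0.050 (without L7 replicate 3) to 0.221 when 1 library was left out. With the sex covariate the nuclear median was 0.203 and the mitochondrial median 0.324. The differences in muscle isoform share ran from 3.64 to 22.8 points for Cox6a, 3.88 to 18.7 for Cox7a and 2.88 to 21.3 for Cox8 when 1 library was left out, lowest without L7 replicate 3.

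Single genes, none of them past the threshold, changed sign as follows. With array weights, whose fit gave a convergence warning, log2 differences were -0.020 for mt-Cytb, -0.189 for Uqcrb, -0.010 for Cox6b1, -0.096 for Atp5mpl, 0.036 for Cox6b2 and -0.023 for Ndufa4. With median of ratios they were 0.102 for Ndufb2, 0.074 for Cox4i2, 0.002 for Cox6b2, 0.163 for Cox7a2 and 0.085 for Ndufa4l2, with quantile normalization 0.099, 0.074, 0.007, 0.064 and 0.052, and with voom 0.126 for Ndufb2, 0.040 for Cox4i2, 0.171 for Cox7a2 and 0.070 for Ndufa4l2. Without L7 replicate 3 under median of ratios they were -0.138 for Uqcrb, -0.025 for Atp5mpl, -0.013 for Cox8b and -0.018 for Ndufa4. When 1 library was left out the ranges were -0.015 to 0.927 for mt-Atp6, -0.036 to 0.946 for mt-Nd3, -0.052 to 1.072 for mt-Nd4l, -0.150 to 0.068 for Ndufb2, -0.169 to 0.286 for Uqcrb, -0.005 to 0.449 for Uqcrq, -0.002 to 0.254 for Cox6b1, -0.056 to 0.188 for Atp5mpl, -0.257 to 0.036 for Cox4i2, -0.122 to 0.080 for Cox7a2, -0.006 to 0.105 for Cox7a2l, -0.045 to 0.822 for Cox8b, -0.050 to 0.424 for Ndufa4 and -0.184 to 0.062 for Ndufa4l2. The cause of these changes was not tested.

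Control and L7 libraries share replicate numbers. Deviations from the group means correlated at 0.322, -0.065 and 0.087 for numbers 1 to 3, and the numbers were not taken as pairs. L7 replicate 3 enters the L7 mean and so every L7 deviation, so these correlations cannot exclude pairs. Y-linked reads in control and L7 were 4184 and 3185 for number 1, 0 and 0 for number 2, and 4168 and 2 for number 3. The low share of Ndufa12 reads was found in both number 2 libraries. L7 replicates 2 and 3 did not correlate best with the control of their own number (0.22 for L7 replicate 2 with control replicate 1, and 0.206 for L7 replicate 3 with control replicate 2). With the replicate block limma called 0 genes and 0 members, the nuclear and mitochondrial medians were 0.256 and 0.479, and the exact permutation p of each isoform share was 0.25.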
